A study of Homo sapiens with 4 samples.

Results

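The 29 genes described here make cholesterol and fatty acids or control that synthesis. They were chosen by symbol out of 36601 features, with earlier results of these data known. They comprise 8 enzymes from acetyl-CoA to squalene, 10 enzymes from squalene to cholesterol, 6 genes of sterol sensing and transport, and 5 enzymes of fatty acid synthesis. All 29 symbols were found. They were measured in H9, an established human embryonic stem cell line, with a single-cell kit that reads the 3′ end of each RNA and tags every captured molecule with a random barcode, the UMI, so that copies made in amplification are counted once. The groups were SIRT1 KO cells (labelled as a sirtuin 1 deletion) at day 0, wild-type (WT) cells at day 0, SIRT1 KO cells at day 6 and WT cells at day 6, where the protocol leads to dopaminergic neurons. Each group was 1 library. The labels do not say how the deletion was made or whether the KO cells came from 1 clone, and the medium used in differentiation is not stated. The growth protocol, given for all 4 libraries, names mTeSR1 medium on Geltrex.

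Cells make cholesterol from acetyl-CoA through mevalonate, isoprenoids, squalene and a series of sterols. When sterol in the endoplasmic reticulum is low, the escort protein SCAP carries the SREBP transcription factors to the Golgi, where they are cut and released to switch on genes of cholesterol and fatty acid synthesis and uptake. When sterol is ample, the INSIG proteins hold SCAP back. INSIG1 is itself an SREBP target, and INSIG2 is known as a target of other signals, hypoxia among them. SIRT1 is an NAD-dependent deacetylase that has been described as acting on SREBP proteins.

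Cells had at least 4000 UMIs, 1000 genes and at most 20% mitochondrially encoded UMIs, which left 7275 KO and 5533 WT cells at day 0 and 4419 KO and 5372 WT cells at day 6. Median UMIs per cell were 8367 in KO and 12645 in WT at day 0, and 13169 in KO and 8590 in WT at day 6. SIRT1 itself stood at 7.11 CPM in KO and 32.3 CPM in WT at day 0, and at 9.95 CPM in KO and 30.2 CPM in WT at day 6, where CPM is counts per 1000000 UMIs of the summed cells. The cells also differed in chromosome 20, taken as its share of the UMIs outside mitochondrial and ribosomal genes. This chromosome 20 share was at least 3% in 28.3% of KO and 96.3% of WT cells at day 0. At day 6 it was at least 3% in 27.3% of KO and 78.1% of WT cells. POU5F1, a pluripotency factor, had a UMI in at least 50% of the cells of every day 0 cluster. At day 6, 6 of 8 pluripotency markers were lower in KO and 7 of 8 in WT than at day 0. Between 5 and 18 cell barcodes were shared by any pair of libraries.

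With 1 library per group no difference has a replicate check, and no test was made. Ranges in parentheses are exact 95% intervals for counting error alone. A gene counted as measured in a comparison where it reached 10 CPM in 1 of its 2 libraries, and it is called higher or lower where the ratio of CPM was at least 1.5-fold and its interval excluded 1. Levels come from 3′ tags, which do not scale with transcript length.

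The promoter regions of 5 genes whose levels differ most in the results, or which code for a main regulator, are shown first. They are the RefSeq stretches (GRCh38.p14) upstream of the annotated gene, 5′ to 3′ on the gene's own strand. Capitals mark matches on either strand to CCAAT, the box bound by NF-Y, which works with SREBPs; to TCACNCCAC, a sterol regulatory element; and to ACGTG, the core bound by hypoxia-inducible factors.
HMGCS1, chr5:43313513-43313662, minus strand: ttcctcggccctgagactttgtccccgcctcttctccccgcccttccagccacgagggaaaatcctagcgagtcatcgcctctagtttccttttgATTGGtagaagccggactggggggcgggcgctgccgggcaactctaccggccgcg
INSIG1, chr7:155297628-155297775, plus strand: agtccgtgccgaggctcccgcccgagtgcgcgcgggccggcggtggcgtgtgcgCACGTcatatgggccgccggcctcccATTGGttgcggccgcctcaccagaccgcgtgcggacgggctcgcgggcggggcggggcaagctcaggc
INSIG2, chr2:118088221-118088451, plus strand: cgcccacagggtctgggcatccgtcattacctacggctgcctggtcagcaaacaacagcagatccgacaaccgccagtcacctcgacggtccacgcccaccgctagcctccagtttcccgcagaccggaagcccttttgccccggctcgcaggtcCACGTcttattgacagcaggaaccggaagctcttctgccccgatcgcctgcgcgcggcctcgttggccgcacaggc
SREBF2, chr22:41832855-41833078, plus strand: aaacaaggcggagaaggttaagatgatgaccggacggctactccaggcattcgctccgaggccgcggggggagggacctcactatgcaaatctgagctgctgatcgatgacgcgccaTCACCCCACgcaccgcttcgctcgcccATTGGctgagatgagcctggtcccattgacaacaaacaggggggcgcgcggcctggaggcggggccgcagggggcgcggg
STARD4, chr5:111512591-111512785, minus strand: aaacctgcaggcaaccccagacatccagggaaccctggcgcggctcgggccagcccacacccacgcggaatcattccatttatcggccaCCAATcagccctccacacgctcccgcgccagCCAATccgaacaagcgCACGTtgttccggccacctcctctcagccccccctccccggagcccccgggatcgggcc
A sequence was available for 25 of the 29 genes, in windows of 250 bases before the start. CCAAT or its reverse was found for 19 of these 25 genes, or 76%, against 37.0% of all 27305 genes in the promoter table and 42.9% of the 7755 that reached 10 CPM in a library. TCACNCCAC was found for SREBF2 alone among the 25, against 1.09% of all genes. ACGTG was found for 8 of 25, or 32%, against 21.7% of all genes and 30.3% of those at 10 CPM, a share near the latter. The 8 were SC5D, DHCR7, INSIG1, INSIG2, SCAP, STARD4, ACACA and ELOVL6. A gene with several promoters counts if any of them holds the letters. These matches describe the sequences and show no binding.

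The members together took 0.255% of UMIs in KO and 0.191% in WT at day 0, and 0.389% in KO and 0.268% in WT at day 6. Their summed level was 1.33-fold (1.33 to 1.34) higher in KO than in WT at day 0 and 1.45-fold (1.44 to 1.46) at day 6. From day 0 to day 6 it was 1.52-fold (1.51 to 1.53) higher in KO and 1.40-fold (1.39 to 1.41) in WT. SCD, the desaturase that makes oleate, had the highest level of the 29 in each library, and MVK, mevalonate kinase, the lowest at day 0; at day 6 SCAP (12.8 CPM in KO and 8.96 CPM in WT) and MVK (13.8 CPM in KO and 8.93 CPM in WT) were both low, with overlapping intervals in both libraries.

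**Figure D1:**
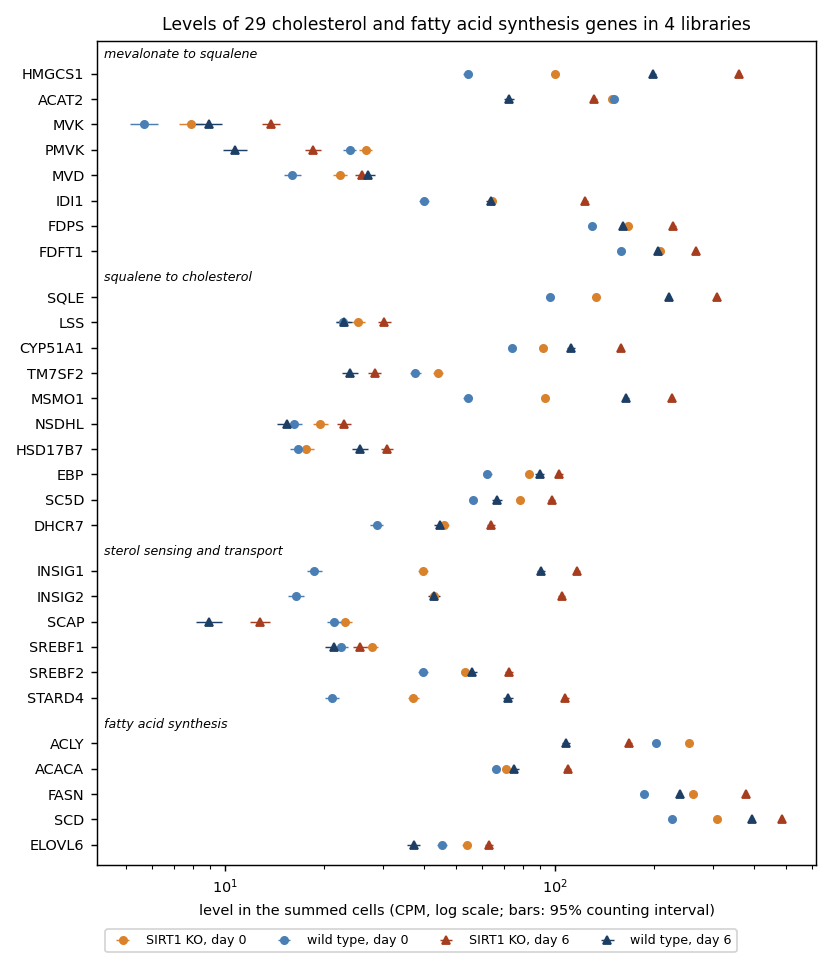
Levels of the 29 genes in CPM on a log axis, 1 row per gene and 1 marker per library, with 95% counting intervals as bars. In most rows the KO marker of a day lies to the right of the WT marker of that day, and HMGCS1, SQLE, MSMO1, INSIG1, INSIG2 and STARD4 lie further right at day 6.

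At day 0, KO cells held more RNA of 3 of the 6 sterol sensing and transport genes (INSIG1, INSIG2 and STARD4) and of 4 of the 17 measured cholesterol enzymes (HMGCS1, IDI1, MSMO1 and DHCR7) than WT cells. Of 28 measured members, 7 were higher and 0 lower, against 1.48% of all 9095 measured genes higher and 2.05% lower. The median log2 ratio of the members was 0.41, against -0.01 for all measured genes. Above 0 lay 27 of the 28 members and 48.7% of all measured genes. The count fell to 2 (INSIG1 and INSIG2), against 1.02% of all genes, when KO cells were limited to those with a chromosome 20 share of at least 3%, with a median of 0.27. The summed level against WT was 1.22-fold (1.21 to 1.23) in those KO cells and 1.38-fold (1.37 to 1.39) in the others. Within WT, cells under 3% had 1.08-fold the summed level of the whole WT library at day 0 and 1.09-fold at day 6. The whole library includes those cells, so no interval is given. Of the cell type markers, 2 of 8 for pluripotency were lower in KO, with the list at 2807 CPM in KO and 3164 CPM in WT. For surface ectoderm 0 of 4 measured were called, with the list at 1032 CPM in KO and 1253 CPM in WT. Of 3 measured neuron markers 2 were higher, with the list at 190 CPM in KO and 137 CPM in WT. Of 3 measured neural progenitor markers 1 was higher and 1 lower, with the list at 589 CPM in KO and 373 CPM in WT. Of 2 measured endoderm markers 1 was higher, and of 2 measured mesenchyme markers 1 was lower. The part of chromosome 20 or of these markers in the members' levels was not tested.

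In the mevalonate arm at day 0, HMGCS1, which makes HMG-CoA (ENSG00000112972, chromosome 5, 43289395 to 43313512, minus strand of GRCh38), stood at 100.2 CPM (97.9 to 103) in KO and 54.3 CPM (52.6 to 56.0) in WT, 1.85-fold (1.78 to 1.92) higher. IDI1, the isopentenyl diphosphate isomerase, stood at 64.5 CPM in KO and 40.1 CPM in WT, 1.61-fold (1.54 to 1.69). The other members of the arm lay closer to 1. MVD, mevalonate diphosphate decarboxylase, had a ratio of 1.40 (1.29 to 1.51), and FDPS and FDFT1, which make farnesyl diphosphate and squalene, had ratios of 1.28 and 1.31. PMVK, phosphomevalonate kinase, had a ratio of 1.12 (1.05 to 1.19). ACAT2, the cytosolic thiolase that joins 2 acetyl-CoA, had 148 CPM in KO and 151 CPM in WT, a ratio of 0.985 (0.960 to 1.01), the only measured member at or below 1 (log2 ratio 0.04 with TMM scaling). Its gene overlaps TCP1 on the opposite strand, and that of MVK overlaps MMAB, so both counts are uncertain. MVK did not reach 10 CPM in either library, with 7.88 CPM in KO and 5.68 CPM in WT.

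Among the sterol enzymes, MSMO1, the C4 methylsterol oxidase, had 93.0 CPM in KO and 54.4 CPM in WT at day 0, 1.71-fold (1.64 to 1.78) higher. DHCR7, which makes cholesterol from 7-dehydrocholesterol, had 46.2 CPM in KO and 28.8 CPM in WT, 1.6-fold (1.52 to 1.70), a count that is uncertain because AP002387.2, counted at a like level, overlaps it on the opposite strand. The other 8 were not called. Squalene epoxidase (SQLE), a controlled step, had a ratio of 1.38 (1.34 to 1.43), as did SC5D, a desaturase (1.33 to 1.44). EBP, a sterol isomerase, had 1.34 and CYP51A1, the lanosterol demethylase, 1.24. The dehydrogenase NSDHL had 1.20, the reductase TM7SF2 1.17 (uncertain, since VPS51 overlaps it on the same strand), lanosterol synthase (LSS) 1.11 and the ketosteroid reductase HSD17B7 1.06 (0.977 to 1.14).

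The largest ratios at day 0 were those of the INSIG genes. INSIG2 (ENSG00000125629) lies on chromosome 2 from 118088452 to 118110997, and INSIG1 (ENSG00000186480) on chromosome 7 from 155297776 to 155310235, both on the plus strand of GRCh38. INSIG2 stood at 43.1 CPM (41.6 to 44.6) in KO and 16.4 CPM (15.5 to 17.4) in WT, 2.62-fold (2.45 to 2.80) higher. INSIG1 stood at 39.8 CPM (38.4 to 41.3) in KO and 18.6 CPM (17.7 to 19.6) in WT, 2.14-fold (2.0 to 2.28). STARD4, which carries cholesterol between membranes, stood at 37.2 CPM in KO and 21.1 CPM in WT, 1.76-fold (1.65 to 1.88). The genes of the SREBP proteins themselves were not called. SREBF2, the regulator with most weight on cholesterol genes, had a ratio of 1.34 (1.28 to 1.41), SREBF1, with more weight on fatty acid genes, 1.24 (1.16 to 1.32), and SCAP 1.08 (1.01 to 1.16).

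No fatty acid enzyme was called at day 0. FASN, the fatty acid synthase, had 262 CPM in KO and 186 CPM in WT, a ratio of 1.40 (1.37 to 1.44), and SCD a ratio of 1.36 (1.34 to 1.39). ACLY, which makes cytosolic acetyl-CoA from citrate, had 1.26, ELOVL6, an elongase of long chains, 1.19, and ACACA, acetyl-CoA carboxylase, 1.07 (1.03 to 1.11).

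At day 6, 5 of the 8 enzymes of the mevalonate arm, 3 of the 5 fatty acid enzymes and INSIG2 were higher in KO than in WT. Of 29 measured members, 9 were higher and 0 lower, against 17.4% of all 8723 measured genes higher and 4.36% lower. The median log2 ratio of the members was 0.51, against 0.25 for all genes; 28 of the 29 members and 74.5% of all genes lay above 0. TMM scaling brought the median of all genes to 0.03 and that of the members to 0.29, and the count was then 4 (HMGCS1, ACAT2, IDI1 and INSIG2) against 7.22% of all genes. With KO cells of a chromosome 20 share of at least 3% it was 5 of 29 (ACAT2, MVK, IDI1, NSDHL and INSIG2) against 17.2% of all genes, a share like that of all genes, and the members' median lay 0.10 above that of all genes. The summed level against WT was 1.27-fold in those KO cells and 1.52-fold in the others. Cell type markers also differed at day 6. All 4 measured of 6 surface ectoderm markers were lower in KO, with the list at 800.3 CPM in KO and 1542 CPM in WT, and both measured of 6 mesenchyme markers, with the list at 141 CPM in KO and 434 CPM in WT. Of 8 neural progenitor markers 4 were measured and 2 were higher, with the list at 3064 CPM in KO and 3109 CPM in WT. Of 8 pluripotency markers 7 were measured, 1 was higher and 2 were lower. Their part in the members' levels was not tested.

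In the mevalonate arm at day 6, IDI1 stood at 123 CPM (121 to 126) in KO and 63.9 CPM (61.7 to 66.1) in WT, 1.93-fold (1.85 to 2.01) higher. HMGCS1 stood at 361 CPM (357 to 366) in KO and 198 CPM (195 to 202) in WT, 1.82-fold (1.78 to 1.87). ACAT2 stood at 131 CPM in KO and 72.4 CPM in WT, 1.81-fold (1.74 to 1.88). Thus ACAT2, at a ratio near 1 at day 0, was among the higher genes at day 6. PMVK was 1.72-fold (1.55 to 1.91) and MVK 1.54-fold (1.38 to 1.73) higher, at 18.5 and 13.8 CPM in KO and 10.7 and 8.93 CPM in WT. FDPS had a ratio of 1.42 and FDFT1 of 1.3. MVD was the exception, with 25.9 CPM in KO and 27.0 CPM in WT, a ratio of 0.959 (0.892 to 1.03), and a log2 ratio of 0.08 with cells thinned to 4000 UMIs.

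None of the 10 sterol enzymes was called at day 6. Their ratios ran from 1.15 (1.11 to 1.19) for EBP, whose log2 ratio was -0.02 with TMM scaling, to 1.49 (1.36 to 1.62) for NSDHL. SC5D had 1.47, DHCR7 1.43, CYP51A1 1.41, SQLE 1.40, MSMO1 1.38, LSS 1.32, HSD17B7 1.21 and TM7SF2 1.19.

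INSIG2 had the largest ratio of the members at day 6 too, with 105 CPM (102 to 107) in KO and 43.0 CPM (41.2 to 44.8) in WT, 2.44-fold (2.32 to 2.56) higher. INSIG1 stood at 117 CPM (114 to 119) in KO and 90.7 CPM (88.1 to 93.3) in WT, a ratio of 1.29 (1.24 to 1.33) that was not called. The log2 ratio of INSIG1 was 0.73 smaller than at day 0, and that of INSIG2 0.10 smaller. The median of all genes was higher at day 6. Less that median, the log2 ratio of INSIG1 was 1.10 at day 0 and 0.12 at day 6. That of INSIG2, less the same median, was 1.40 at day 0 and 1.04 at day 6. STARD4 had a ratio of 1.49 (1.43 to 1.55), SCAP 1.42, SREBF2 1.3 and SREBF1 1.20. Among fatty acid enzymes, ELOVL6 stood at 63.1 CPM in KO and 37.3 CPM in WT, 1.69-fold (1.6 to 1.78) higher. FASN stood at 378 CPM in KO and 239 CPM in WT, 1.58-fold (1.55 to 1.62), and ACLY was 1.55-fold (1.5 to 1.6). ACACA had a ratio of 1.45 and SCD of 1.24, which were not called. HMGCS1, IDI1 and INSIG2 were higher in KO at both days.

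**Figure D2:**
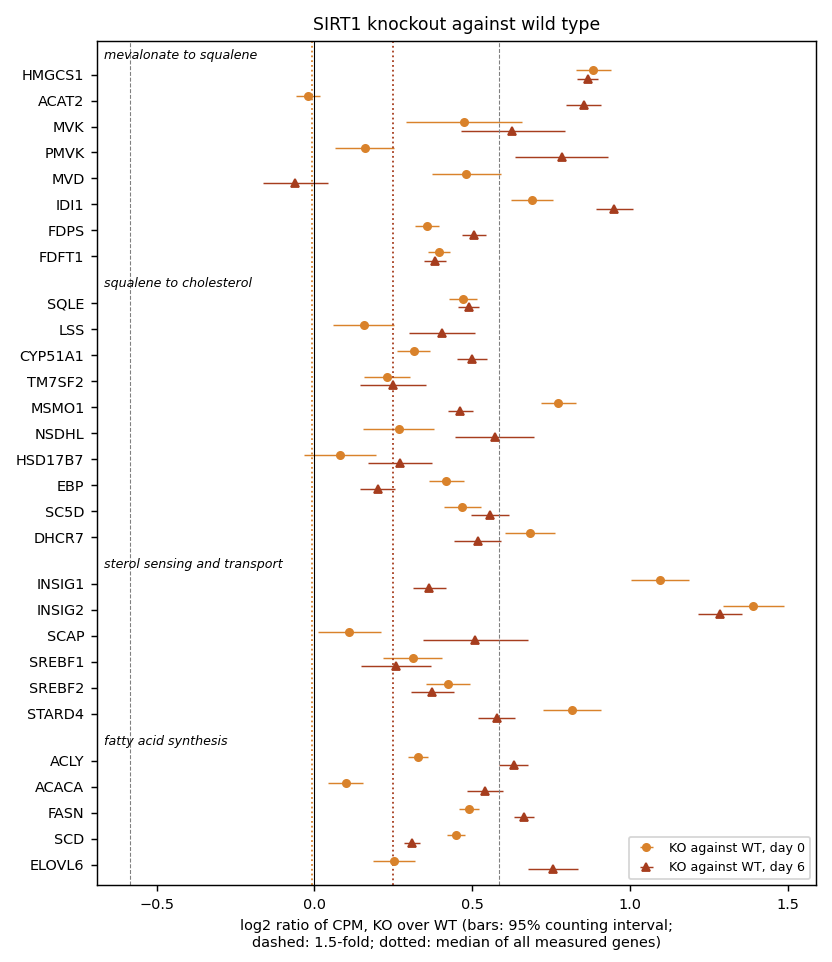
Log2 ratio of CPM, KO over WT, for each gene at day 0 (circles) and day 6 (triangles), with 95% counting intervals, dashed lines at 1.5-fold and dotted lines at the median of all measured genes. The INSIG2 ratios stand furthest right at both days, INSIG1 and MSMO1 are higher at day 0 than at day 6, and ACAT2 and MVD lie just below 0 at 1 day each when scaled to total UMIs; MVK at day 0 was below 10 CPM in both libraries.

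At day 6, 10 members, HMGCS1 and both INSIG genes among them, were higher than at day 0 in both genotypes, and 3 were lower in both. The share of all genes called in both genotypes is not reported here, so these counts are not set against all genes. By role, 3 of 8 measured mevalonate arm enzymes were higher and 0 lower in KO, and 3 of 7 higher and 2 lower in WT. Of the 10 sterol enzymes, 4 were higher and 1 lower in KO, and 5 higher and 1 lower in WT. Of the 6 sensing and transport genes, 3 were higher and 1 lower in each genotype, and of the 5 fatty acid enzymes, 2 were higher and 1 lower in KO and 1 higher and 1 lower in WT. In KO, 12 of 29 measured members were higher and 3 lower at day 6 than at day 0, against 13.9% of all 9368 measured genes higher and 20.9% lower. In WT, 12 of 28 were higher and 5 lower, against 11.7% of all 9324 genes higher and 37.2% lower. Median log2 ratios of the members were 0.46 in KO and 0.43 in WT, against -0.09 and -0.35 for all genes. These comparisons share the KO and WT libraries with the comparisons between genotypes. TMM scaling brought the median of all genes to 0.05 in KO and 0.10 in WT; 15 members were then higher and 1 lower in KO, against 19% and 15.5% of all genes, and 19 higher and 3 lower in WT, against 25.8% and 18.6%.

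The 10 members higher at day 6 in both genotypes were HMGCS1, IDI1, SQLE, CYP51A1, MSMO1, HSD17B7, INSIG1, INSIG2, STARD4 and SCD. HMGCS1 was 3.61-fold (3.51 to 3.70) higher in KO and 3.65-fold (3.52 to 3.79) in WT. INSIG1 was 2.93-fold (2.81 to 3.06) higher in KO and 4.87-fold (4.58 to 5.17) in WT, where its day 0 level was 18.6 CPM. STARD4 was 2.89-fold in KO and 3.41-fold in WT, and MSMO1 2.43-fold in KO and 3.01-fold in WT. SQLE was 2.33-fold in KO and 2.29-fold in WT, and INSIG2 2.43-fold in KO and 2.61-fold in WT.

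Lower at day 6 in both genotypes were TM7SF2, SCAP and ACLY. SCAP stood at 12.8 CPM at day 6 and 23.1 CPM at day 0 in KO, and at 8.96 CPM at day 6 and 21.4 CPM at day 0 in WT, ratios of 0.553 in KO and 0.420 in WT. ACLY had ratios of 0.657 (0.642 to 0.673) in KO and 0.533 (0.517 to 0.550) in WT. ACAT2 and PMVK were called lower in WT, at ratios of 0.481 (0.464 to 0.499) and 0.450 (0.408 to 0.495), and in KO had 0.882 (0.857 to 0.907) and 0.693 (0.645 to 0.745). SREBF1 had ratios of 0.917 in KO and 0.951 in WT, with log2 ratios above 0 under TMM scaling, and SREBF2 of 1.36 in KO and 1.41 in WT.

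**Figure D3:**
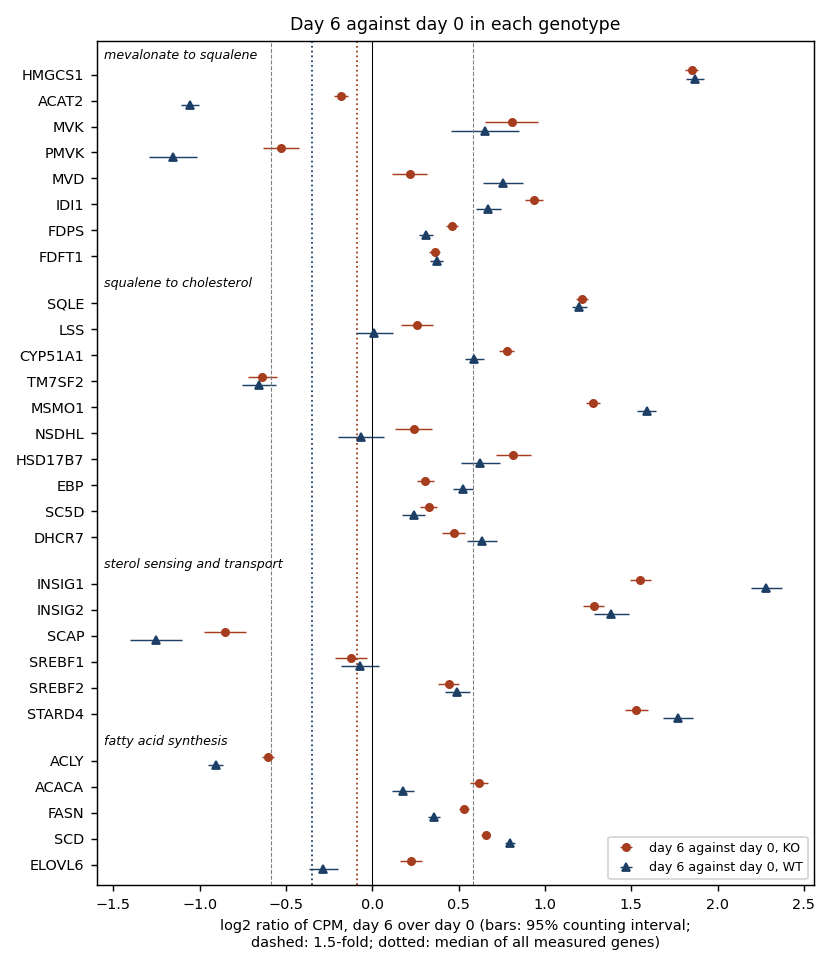
Log2 ratio of CPM, day 6 over day 0, for each gene in KO (circles) and WT (triangles), with 95% counting intervals, dashed lines at 1.5-fold and dotted lines at the median of all measured genes. HMGCS1, INSIG1 and STARD4 stand furthest right, and SCAP, ACLY, TM7SF2, PMVK and ACAT2 lie left of 0 in both genotypes.

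Related genes outside the 29 were counted by the same limits, to be read against the 1.48% and 17.4% of all genes higher in KO at day 0 and day 6. Of 12 measured further cholesterol synthesis genes, 0 were higher or lower in KO at day 0, and 2 were higher at day 6, LBR (a sterol reductase of the nuclear envelope) among them at 1.71-fold (1.62 to 1.81). Of 15 measured genes of SREBP processing and sterol-sensor degradation, 0 were called at day 0, and of 14 at day 6 the 1 called was ERLIN1, at 1.53-fold (1.40 to 1.68). Of 16 uptake, storage and export genes at day 0, 2 were higher, LRP8 (a lipoprotein receptor) at 1.55-fold (1.47 to 1.63) among them, and 1 was lower, ABCA1, the cholesterol exporter, at 5.62 CPM in KO and 14.3 CPM in WT. At day 6, 1 of 13 was higher (NR1H2) and 1 lower (VLDLR). Of 21 further fatty acid and triglyceride genes at day 0 and 20 at day 6, 0 were called at either day. Of 15 fatty acid oxidation genes, 1 was lower at day 0 (DECR1), and of 14 at day 6, 1 was higher (ECI2).

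Genes of the hypoxia response also differed between libraries. In KO against WT, 9 of 14 measured hypoxia genes were higher and 0 lower at day 0, against 1.48% and 2.05% of all genes. At day 6, 6 of 15 were higher and 1 lower, against 17.4% and 4.36%. With day, 12 of 15 were higher in KO and 13 of 15 in WT, against 13.9% and 11.7%. Over cells each thinned to 4000 UMIs, r of the hypoxia sum with the cholesterol enzymes was 0.18 in KO and 0.09 in WT at day 0. At day 6 it was 0.16 in KO and 0.08 in WT. The part of the hypoxia response in the members' levels was not tested.

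In single cells, each thinned to 4000 UMIs, the 29 members together gave a median of 10 UMIs in KO and 7 in WT at day 0, and 15 in KO and 10 in WT at day 6. The 18 cholesterol enzymes had quartiles of 4 and 7 UMIs in KO and 2 and 6 in WT at day 0, and of 6 and 12 in KO and 4 and 8 in WT at day 6. The distributions overlapped between genotypes at both days. HMGCS1 had a UMI in 32.0% (30.9 to 33.1) of KO and 18.9% (17.9 to 20) of WT cells at day 0, and in 67.6% (66.2 to 69.0) of KO and 49.3% (47.9 to 50.6) of WT cells at day 6. Without thinning these shares were 55.4% in KO and 45.4% in WT at day 0, and 92.4% in KO and 72.6% in WT at day 6. If free RNA made up 10% of the UMIs in a cell, it alone would produce thinned shares of 4.80% in KO and 2.39% in WT at day 0, and of 13.9% in KO and 7.34% in WT at day 6. Pairs of members were only weakly correlated over thinned cells of a library, with medians of r from 0.016 to 0.023 over 406 pairs. The highest was HMGCS1 with SQLE at 0.29 in KO at day 6. Mean UMIs per thinned cell ran from 0.021 (MVK, WT day 0) to 1.96 (SCD, KO day 6), and such low counts hold r near 0. Sums of the mevalonate arm and of the sterol enzymes had r of 0.22 in KO and 0.21 in WT at day 0, and of 0.35 in KO and 0.28 in WT at day 6.

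**Figure D4:**
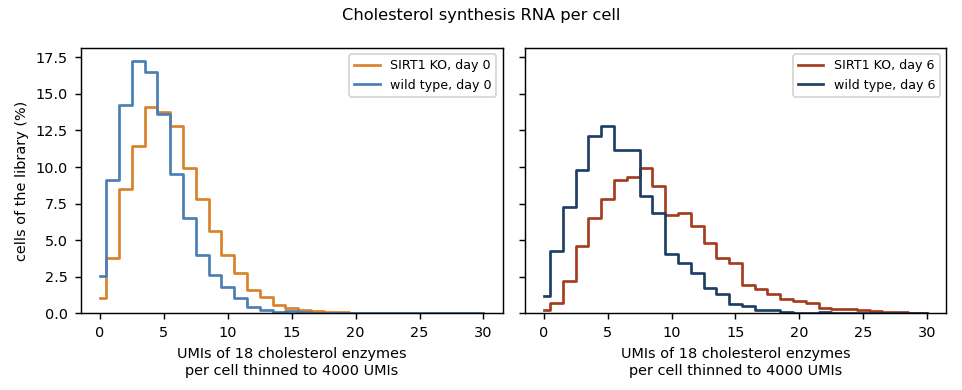
Share of cells in each library by UMIs of the 18 cholesterol enzymes after thinning each cell to 4000 UMIs, at day 0 (left) and day 6 (right), KO and WT in each panel. The KO curves are shifted to the right of the WT curves at both days, with overlap, and medians are 5 in KO and 4 in WT at day 0 and 8 in KO and 6 in WT at day 6.

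Within libraries, INSIG2 had the widest range over clusters of the 29 members in 3 of 4 libraries. Its highest level was 4.18 times its lowest in KO and 9.29 times in WT at day 0, and 1.81 times in KO and 2.68 times in WT at day 6, over clusters of at least 50 cells. In KO at day 6 the widest range was that of MVD, at 2.5 times. The lowest MVD level, 13.3 CPM, came from a cluster of 64 cells and 600981 UMIs, so it rests on few counts. Also above INSIG2 there were ACAT2 (2.29 times), FDPS (2.26 times), PMVK (2.13 times), DHCR7, HMGCS1, TM7SF2 and ACLY (1.85 times). Clusters were made without the 29 members, mitochondrial or ribosomal genes. At day 0 the sum ran from 2161 to 2947 CPM over 8 KO clusters and from 1337 to 2969 CPM over 9 WT clusters. At day 6 it ran from 3677 to 4459 CPM over 8 KO clusters and from 2107 to 3016 CPM over 6 WT clusters of at least 50 cells, so these did not overlap. A KO cluster of 30 cells had 2497 CPM, and a WT cluster of 15 cells had 3834 CPM.

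In KO at day 0, INSIG2 was highest in the cluster led by APOA1, CST1 and mitotic genes, at 82.9 CPM (75.8 to 90.5), which also had the highest hypoxia sum, 2362 CPM. It stood at 72.8 CPM (69.0 to 76.7) in the KO cluster led by APLN, SLC16A3 and hypoxia genes, and at 108 CPM (92.4 to 126) in the WT day 0 cluster led by NDUFA4L2 and ANKRD37, where INSIG1 had 30.7 CPM and HMGCS1 55.5 CPM. The 16 hypoxia genes summed to 2055 CPM in the APLN-led KO cluster and 3072 CPM in the NDUFA4L2-led WT cluster. The lowest INSIG2 level of a day 0 cluster was 19.8 CPM in KO and 11.7 CPM in WT. HMGCS1 was at 1.20 times and INSIG1 at 1.26 times the level of the whole KO library in the APOA1-led cluster, and at 1.18 and 1.20 times in the APLN-led cluster. The NDUFA4L2-led WT cluster had HMGCS1 at 1.02 times and INSIG1 at 1.65 times the level of the WT library. HMGCS1 and INSIG1 in WT at day 0 were highest in the cluster led by HOXB-AS3, APLNR and LHX1, at 169 CPM (143 to 199) and 52.8 CPM (38.5 to 70.7), and lowest in the metallothionein-led cluster, at 29.4 and 10.2 CPM.

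**Figure D5:**
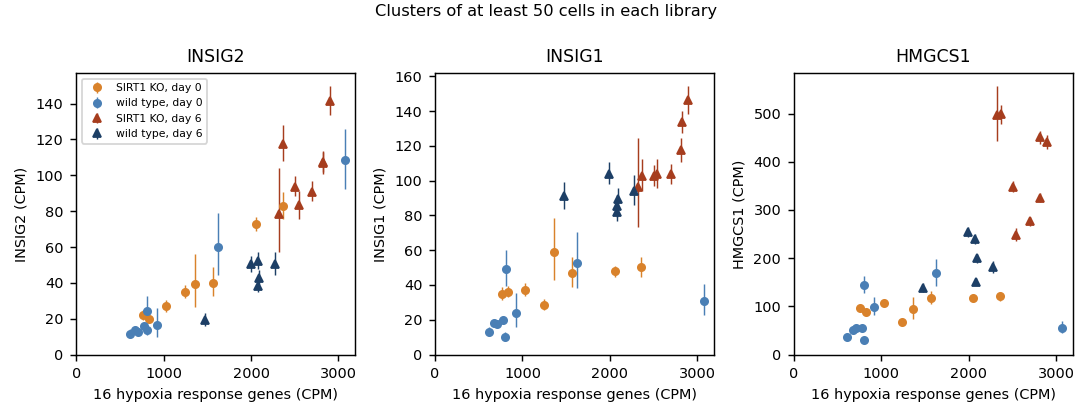
Levels of INSIG2, INSIG1 and HMGCS1 (CPM, vertical axes, with 95% counting intervals) against the summed 16 hypoxia response genes (CPM) in clusters of at least 50 cells, 1 point per cluster and colour per library. INSIG2 is high where the hypoxia sum is high at day 0; the WT day 0 cluster with the highest hypoxia sum, 3072 CPM, has INSIG1 at 1.65 times and HMGCS1 at 1.02 times the level of the WT library.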

How the data were processed

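The authors deposited raw UMI counts of every barcode, from the 10x Chromium 3′ kit per the labels. The submitters' processing notes name Cell Ranger 6.1.2 and GRCh38, while the file headers name Cell Ranger 4. Cells were called here at 4000 UMIs, 1000 genes and at most 20% mitochondrial UMIs. Each library's cells were pooled by adding their counts, which were scaled to their total. Ratios of CPM carry Clopper-Pearson 95% intervals, and log2 ratios a prior count of 0.5. Positions are those of GENCODE for GRCh38. Each library was clustered by itself with leidenalg 0.10.2 (2000 variable genes, 30 components, 15 neighbours, Leiden resolution 0.5). Doublets were kept, since the automatic Scrublet threshold in scanpy 1.11.5 marked at most 1 cell per library. TMM factors came from edgeR 4.0.16. Ratios and intervals were tested on simulated data. All 29 members are named, with SIRT1 and up to 4 genes of each further list. The members and lists were chosen with earlier results of these data known. Some genes of the further lists are counted but not reported by name here. ACAT2 overlaps TCP1, MVK overlaps MMAB and DHCR7 overlaps AP002387.2 on the opposite strand, and no source says whether counting used strand; TM7SF2 overlaps VPS51 on the same strand. The counts of these members are uncertain. Any other gene overlapping a member was below that member's level in each library.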

Additional observations from a re-analysis of the deposited data

Results flagged for a closer look

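ELOVL6, the elongase of long-chain fatty acids, went opposite ways with day in the 2 genotypes. It stood at 63.1 CPM at day 6 and 54.1 CPM at day 0 in KO, a ratio of 1.17 (1.12 to 1.22), and at 37.3 CPM at day 6 and 45.4 CPM at day 0 in WT, a ratio of 0.822 (0.777 to 0.870). The KO log2 change minus the WT change was 0.505. With 1 library per group this difference was not tested. With TMM scaling the WT log2 change was 0.125, so the opposite directions did not hold under that scaling.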

How the results depend on the processing

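No paired analysis was possible because each group was 1 library and the labels give no replicate numbers, and for the same reason no replicate could be left out. No called member changed direction under any alternative. With TMM factors the members called higher in KO at day 6 fell to 4; between days 1 was lower in KO, and 19 were higher and 3 lower in WT. At 2-fold the calls in KO against WT were 2 at day 0 (0.429% of all genes higher) and 1 at day 6 (3.11%), and between days they were 6 higher and 0 lower in KO (5.76% and 8.57% of all genes), and 6 higher and 3 lower in WT (5.94% and 19.4%). With KO cells of a chromosome 20 share of at least 3%, 2 were higher at day 0 and 5 at day 6. The other settings chosen with the members (scaling without ribosomal and mitochondrial genes, the level filter, cell calling, the mitochondrial limit, thinning, free RNA and doublets) kept counts within 1.5 times, and a POU5F1 limit of 50% kept every cluster and so changed nothing. After seeing the data, 5 further subsets of clusters were tried. At day 0 each kept 7 members higher, against 1.1% to 1.57% of all genes. Dropping clusters led by at least 3 hypoxia genes removed a KO cluster and no WT one (median log2 ratio 0.34). The limit was therefore also set at 2, which removed 1 in each library (median 0.35). Both limits kept the APOA1-led KO cluster, which had the highest hypoxia sum in KO at day 0, 2362 CPM. These subsets thus still held KO cells with high hypoxia RNA. Without the WT day 6 cluster led by ANXA1 and SPP1, 7 members were higher at day 6, against 15.3% of all genes. Counting error limits MVK most, at 7.88 CPM in KO and 5.68 CPM in WT at day 0.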
